A study of Rattus norvegicus with 19 samples.

Results

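Left ventricles of rats given enalapril and paricalcitol together for 4 weeks were compared with left ventricles taken before any treatment began, across all genes measured. The arrays were chosen by their titles alone: 4 from the combination group and 4 from the untreated high-salt group, 8 of the 19 arrays in the study. All rats were male Dahl salt-sensitive rats (Harlan SS/Hsd), a strain in which dietary salt raises blood pressure and the left ventricle thickens, and all were moved at 6 weeks of age to a diet of 6% NaCl. Rats of the baseline group were 11 weeks old and had been on the diet for 5 weeks with no drug and no injection. The combination rats were 15 weeks old and had eaten it for 9 weeks. During the last 4 weeks they received enalapril by osmotic pump at 90 ug per day, and paricalcitol by intraperitoneal injection at 200 ng, 3 times a week.

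The groups therefore differed in age, in weeks on salt, in injection and pump, and in both drugs, and these cannot be told apart in this comparison. There was no group on a low-salt diet, so neither side is a healthy heart. Per the series' design text, the enalapril dose was the highest that did not significantly lower blood pressure in these rats. The animal numbers given with the samples do not interleave between groups, and cohort therefore cannot be told apart from treatment. Each array holds RNA of 1 rat by its label, and p-values below measure the spread between these arrays. The other 11 arrays came from rats of 15 weeks on the same diet given vehicle (4), paricalcitol alone (4) or enalapril with vehicle (3). They entered the normalization and the fit, where they share in the estimate of the spread behind every p-value below, and they set the combination beside its contemporaries.

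Enalapril blocks angiotensin-converting enzyme, which makes angiotensin II, a peptide that constricts vessels and promotes growth of cardiac muscle and deposition of collagen. Paricalcitol activates the vitamin D receptor, a nuclear receptor that represses renin and acts on cardiac muscle cells and fibroblasts. A heart under pressure overload characteristically re-expresses fetal genes such as natriuretic peptides and beta myosin, lays down fibrous matrix between its muscle cells, and shifts its fuel use away from fatty acids.

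Expression was read as array intensity, and each level below is log2 of the normalized intensity plus 16, so the lowest possible level is 4 and a difference of 1 is a doubling for bright genes and less than the true change for dim ones. Cardiomyocyte markers were among the brightest transcripts on every array: Tnnt2, cardiac troponin T, averaged 14.18 ± 0.05 at baseline and 14.24 ± 0.06 in the combination (SD, n = 4 each), and none of the 10 markers measured was at the lowest level on any of the 8 arrays. Of 7 markers of atrium and conduction, 2 (Sln and Hcn4) were at the lowest level on all 8 arrays and 5 above it on every array; of 10 markers of skeletal muscle, 2 (Tnni2 and Mybpc1) were at it on all 8 and 6 above it on every array. Median deposited intensities ran from 55.6 to 72.6 at baseline and from 43.9 to 61.0 in the combination, and the arrays correlated at 0.9581 to 0.9853 across genes.

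The combination hearts were not alike. The first principal component of the 8 arrays held 40.3% of their variance and set combination arrays 2 and 3 (scores -24.8 and -15.8) apart from the other 6, which lay between -0.51 and 14.4. The same arrays were low in red cell RNA. The score of the 7 red cell markers (the mean over markers of the log2 deviation from each marker's average over all 19 arrays) was -1.05 and -0.94 on combination arrays 2 and 3 and 0.56 and 0.69 on arrays 1 and 4, against -0.08 to 0.82 at baseline. Levels of Ahsp, a chaperone of alpha globin, were 8.23, 6.62, 6.56 and 8.99 on combination arrays 1 to 4 and 8.16 to 9.78 at baseline. Hbb, beta globin, stayed close to the top of the range throughout, at 13.62 to 14.28, and 6 of the 7 markers were above the lowest level on every array. Red cell RNA was thus lower on the same arrays on which several gene groups below differed most. Such a split was not particular to the combination. With paricalcitol alone, Ahsp was at 8.55, 7.08, 7.01 and 8.72 on arrays 1 to 4. On those arrays Acaa2, of fatty acid oxidation, was at 12.37, 12.75, 12.65 and 12.21, and the matricellular gene Postn at 11.91, 8.78, 11.36 and 11.59. For groups described below by a median more than 0.05 from 0, the median without arrays 2 and 3, without arrays 1 and 4, or with the red cell score as a covariate is given wherever it moved by more than 1.5 times or turned sign.

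Of 14217 genes, 6925 were higher and 6640 lower in the combination, 652 did not differ at all because nearly all of them lay at the lowest level throughout, and the median difference was 0. After adjustment over all genes (limma's moderated test, Benjamini-Hochberg adjusted p under 0.05), 23 genes passed, which is 0.162% of those tested: 7 were higher (0.0492%) and 16 lower (0.113%) in the combination. Before adjustment 1470 genes (10.3%) had p under 0.05, of which 797 were higher (5.61%) and 673 lower (4.73%). The 4 combination arrays lay wholly above or wholly below the 4 baseline arrays for 794 genes (5.58%). Few differences were large, since 6.56% of genes differed by more than 0.5. Genes that rose included regulators of mitochondria and energy use (Prkag1, Perm1, Pptc7, Mrpl49). Those that fell included the collagen-binding protein Sparc, a collagen receptor subunit (Itga1), growth factors (Igf2, Hdgf) and a calcium channel subunit (Cacna2d1).

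**Figure D1:**
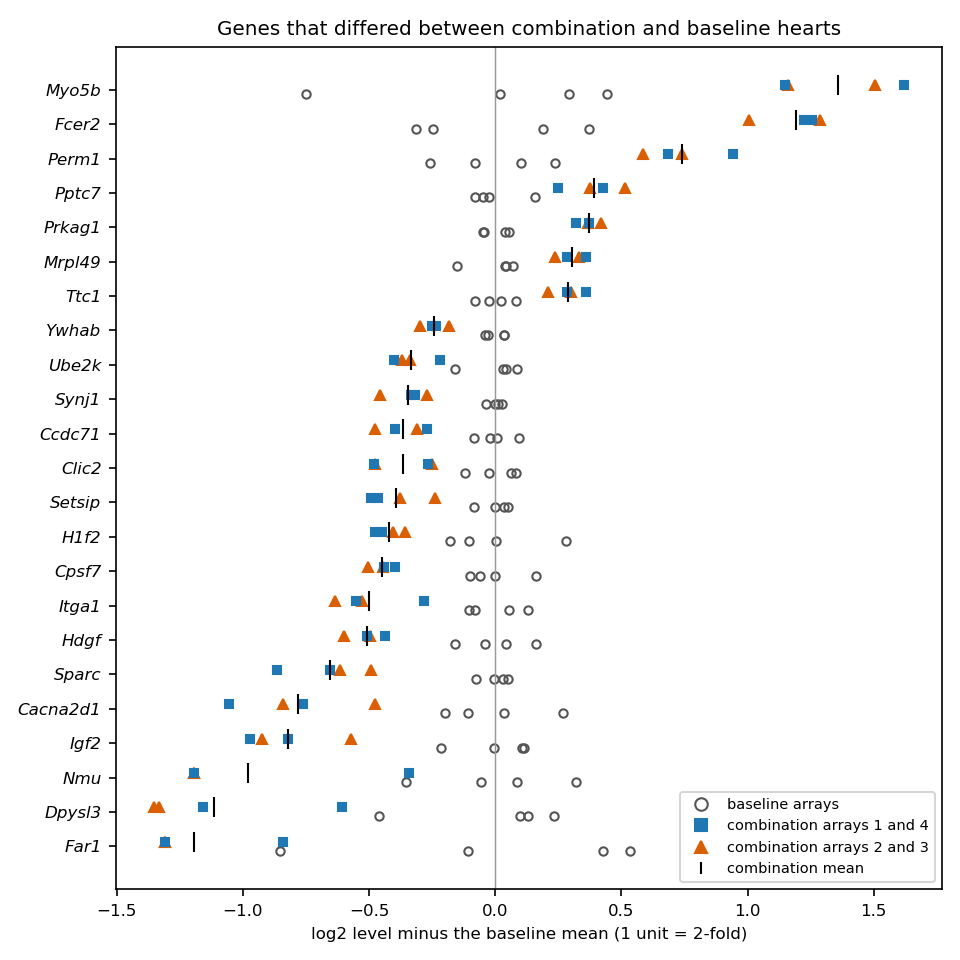
Each row is 1 of the 23 genes that passed, and each symbol 1 array, placed by its log2 level minus the baseline mean of that gene; the short vertical bar is the combination mean. Combination arrays 2 and 3 (triangles) and 1 and 4 (squares) lie on the same side of the baseline arrays for every gene except Far1 and Nmu, where array 1 reaches into the baseline range.

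The calls depended on which arrays were compared. With 1 of the 8 arrays left out, the count of genes that passed was 5 without combination array 2, 9 without combination array 4, and 11, 10 and 13 without baseline arrays 1, 2 and 3. It was 16 without baseline array 4, 18 without combination array 1 and 20 without combination array 3. All 23 genes kept their direction in every omission. Prkag1, Sparc, Hdgf, Cpsf7 and Ywhab passed in all 8 omissions, and no other gene did; they are described first. These omissions kept the 11 other arrays. With only the 8 compared arrays in the fit, or with those 8 normalized alone, 1 gene passed in each case and it was none of the 23: the differences kept their direction, but adjusted p was 0.0918 for Prkag1 and 0.152 for the other 4 when only the 8 arrays were fitted. On the deposited values without equalisation, Prkag1 differed by 0.20 (adjusted p = 0.598), and of these 5 genes only Sparc passed (adjusted p = 0.0239).

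Prkag1 encodes a gamma subunit of AMP-activated protein kinase, the part that senses AMP and ATP in a kinase that turns on energy-producing pathways when cellular energy is low. Its levels were 9.40, 9.30, 9.30 and 9.39 on baseline arrays 1 to 4 and 9.67, 9.76, 9.72 and 9.72 on combination arrays 1 to 4. All 4 combination hearts lay above all 4 baseline hearts, and the spread within each group was small (SD 0.05 and 0.04). The rise was 0.37 (SE 0.05, adjusted p = 0.00441), a 1.29-fold higher level.

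Sparc encodes a secreted protein that binds collagen and guides its assembly in basement membrane and scar. On the baseline arrays its levels were 12.33, 12.32, 12.28 and 12.21, and on the combination arrays 11.42, 11.67, 11.79 and 11.63. The baseline hearts agreed within 0.06 (SD), while the combination hearts spread more (SD 0.16), with array 1 lowest; the groups did not overlap. Sparc fell by 0.66 (SE 0.09, adjusted p = 0.00441), a 1.58-fold lower level, and a second probe set for the gene differed by -0.40 (SE 0.13, unadjusted p = 0.00754).

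Hdgf encodes a heparin-binding growth factor made by cardiac and vascular cells. It measured 8.50, 8.82, 8.70 and 8.62 at baseline and 8.15, 8.17, 8.06 and 8.23 in the combination. No combination heart reached the lowest baseline heart. The fall was 0.51 (SE 0.07, adjusted p = 0.00643).

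Cpsf7 encodes a subunit of the cleavage factor that helps to choose where messenger RNAs are cut and polyadenylated. Its baseline levels were 8.66, 8.88, 8.72 and 8.62, and its combination levels 8.33, 8.22, 8.28 and 8.28. The combination hearts lay within a narrow band (SD 0.04) below every baseline heart, and the gene fell by 0.45 (SE 0.05, adjusted p = 0.00441). Its 3 other probe sets were near the lowest level and gave differences of -0.48, -0.22 and 0.26, none with unadjusted p under 0.05.

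Ywhab encodes a 14-3-3 protein, an adaptor that binds phosphorylated partners of many signalling pathways. Levels were 10.75, 10.74, 10.82 and 10.82 at baseline and 10.53, 10.48, 10.60 and 10.55 in the combination. This was the smallest change among the genes that passed, at -0.24 (SE 0.03, adjusted p = 0.00441), with both groups tight (SD 0.04 and 0.05) and no overlap. Its second probe set differed by -0.15 (SE 0.11, unadjusted p = 0.17).

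Promoters of 3 of these genes and of Perm1, the gene of mitochondrial regulation that rose most, are shown as examples. Each is the 250 bases before the gene's start in RefSeq (build GRCr8), read 5′ to 3′ along the gene's own strand. Prkag1 lies at chr7.0:131859485-131859734 on the minus strand, Perm1 at chr5.0:172081999-172082248 on the plus strand, Sparc at chr10.0:40038817-40039066 on the minus strand and Hdgf at chr2.0:175668040-175668289 on the plus strand. Capitals mark matches, on either strand, to the GC box (GGGCGG), the NF-Y box (CCAAT), the TATA box (TATAAA), the core element of nuclear receptor sites (AGGTCA) and the AP-1 site (TGANTCA); matches may overlap.
Prkag1: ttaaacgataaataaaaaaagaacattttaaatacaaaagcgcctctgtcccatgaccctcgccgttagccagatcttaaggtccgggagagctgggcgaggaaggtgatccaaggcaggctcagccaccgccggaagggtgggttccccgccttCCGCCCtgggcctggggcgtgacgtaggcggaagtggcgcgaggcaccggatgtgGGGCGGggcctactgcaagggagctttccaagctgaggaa
Perm1: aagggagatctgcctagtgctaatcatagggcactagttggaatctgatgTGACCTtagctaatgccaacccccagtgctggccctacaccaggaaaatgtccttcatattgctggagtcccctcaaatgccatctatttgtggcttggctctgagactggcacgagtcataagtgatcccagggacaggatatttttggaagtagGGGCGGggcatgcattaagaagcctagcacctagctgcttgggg
Sparc: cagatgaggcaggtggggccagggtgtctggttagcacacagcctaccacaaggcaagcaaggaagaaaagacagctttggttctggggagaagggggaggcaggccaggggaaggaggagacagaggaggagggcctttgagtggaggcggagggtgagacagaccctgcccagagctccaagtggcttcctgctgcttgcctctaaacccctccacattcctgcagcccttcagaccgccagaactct
Hdgf: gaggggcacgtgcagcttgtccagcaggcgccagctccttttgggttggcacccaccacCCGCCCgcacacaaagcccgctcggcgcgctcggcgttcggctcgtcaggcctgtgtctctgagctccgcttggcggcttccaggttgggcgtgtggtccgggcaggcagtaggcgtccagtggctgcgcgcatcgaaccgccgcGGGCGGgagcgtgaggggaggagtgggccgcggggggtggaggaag

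Prkag1 and Hdgf each hold 2 GC boxes and none of the other motifs. The Perm1 window holds 1 GC box and 1 AGGTCA element. None of these letters occur in the Sparc window. Among all 33465 promoters of the table, 30.5% held a GC box and 14.1% an AGGTCA element. RefSeq entries were found for 20 of the 23 genes. GC boxes occurred in 5 of the 6 promoters of genes that rose. They occurred in 13 of the 18 entries of genes that fell, which come from 14 genes, some with several start sites. The share over all promoters includes genes not measured or not expressed here, so these counts are no test of enrichment. AGGTCA occurred in 1 of the 6 and 1 of the 18. A match describes letters in the window and shows no binding.

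The other genes that rose were led in size by Myo5b, a motor of vesicle recycling. It measured 4.06, 5.10, 5.25 and 4.83 at baseline and 6.43, 6.32, 5.97 and 5.96 in the combination, a rise of 1.36 (SE 0.23, adjusted p = 0.0364). This is a dim gene, with baseline array 1 close to the lowest level. Fcer2 encodes the low-affinity receptor for IgE, a surface protein of B cells and some myeloid cells. Its levels were 6.48, 5.86, 6.30 and 5.80 at baseline and 7.33, 7.40, 7.12 and 7.37 in the combination, a rise of 1.19 (SE 0.22, adjusted p = 0.0498). Of the 4 B cell markers measured, 2 were higher and 2 lower, none past the threshold: Cd22 differed by 0.61 (adjusted p = 0.516) and Blnk by 0.38 (adjusted p = 0.542), whereas Cd79b (-0.21) and Ms4a1 (-0.07) were near the lowest level. A second probe set for Fcer2 was at the lowest level on every array, and the gene passed in none of the 8 omissions.

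Perm1 encodes a muscle protein that works with PGC-1 and ERR regulators to switch on genes of mitochondrial oxidation. Baseline hearts measured 10.03, 9.72, 9.90 and 9.54, and combination hearts 10.48, 10.54, 10.38 and 10.74. Every combination heart was higher, and the rise of 0.74 (SE 0.13, adjusted p = 0.0383) was a 1.67-fold higher level. Pptc7 encodes a phosphatase of the mitochondrion that acts on proteins of metabolism and import. It rose by 0.39 (SE 0.07, adjusted p = 0.0459), from 10.29 to 10.52 at baseline to 10.62 to 10.88 in the combination. Its 2 other probe sets gave 0.42 and 0.33, with unadjusted p of 7.85e-05 and 0.0105.

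Mrpl49, a protein of the mitochondrial ribosome, rose by 0.30 (SE 0.06, adjusted p = 0.0498), from 9.34 to 9.57 at baseline to 9.73 to 9.86 in the combination. A second probe set gave 0.29 (unadjusted p = 0.00171), yet the call was lost in every omission. Ttc1, an adaptor for heat shock proteins, rose by 0.29 (SE 0.05, adjusted p = 0.0364), from 9.54 to 9.70 at baseline to 9.83 to 9.98, while its second probe set differed by 0.12 (unadjusted p = 0.226). Baseline and combination values did not overlap for Pptc7, Mrpl49 or Ttc1.

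The 5 genes of smallest p among the higher ones that did not pass, at a level of 6 or more, were Card9, Mecr, Tmx2, Isca1 and Cluh; other genes such as Mrpl40 and Lsm5 stood about as close. Card9, an adaptor of innate immune signalling, had adjusted p = 0.0503 and was at 4.50, 4.00, 4.03 and 4.00 at baseline and 5.24, 7.92, 7.89 and 6.43 in the combination. The highest values were on combination arrays 2 and 3, and with baseline at or near the lowest level the size of the difference is set by the added constant. Mecr (0.63, adjusted p = 0.0531), an enzyme of mitochondrial fatty acid synthesis, Tmx2 (0.34, adjusted p = 0.0553), a membrane thioredoxin, Isca1 (0.42, adjusted p = 0.0568), which builds mitochondrial iron-sulphur clusters, and Cluh (0.36, adjusted p = 0.0579), which binds messenger RNAs of mitochondrial proteins, followed. Groups overlapped for Mecr alone among these, where baseline array 2 (7.67) exceeded combination array 1 (7.60).

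Among genes that fell, Igf2, an insulin-like growth factor abundant in the fetus, measured 9.70, 9.71, 9.38 and 9.59 at baseline and 8.62, 8.67, 9.02 and 8.77 in the combination. The groups were well apart, and the fall was 0.82 (SE 0.14, adjusted p = 0.0364). Its other probe sets were at or near the lowest level. Cacna2d1 encodes an auxiliary subunit of voltage-gated calcium channels. Levels of 8.43, 8.66, 8.52 and 8.90 at baseline gave way to 7.87, 7.79, 8.15 and 7.58, a fall of 0.78 (SE 0.13, adjusted p = 0.0364).

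Itga1, the alpha subunit of an integrin that binds collagen, fell by 0.50 (SE 0.09, adjusted p = 0.0498), from 8.78 to 9.02 at baseline to 8.25 to 8.61. Dpysl3, a protein of the cytoskeleton of migrating cells, was dim and fell by 1.11 (SE 0.21, adjusted p = 0.0498), from 5.92 to 6.62 at baseline to 5.03 to 5.78. Synj1, a phosphatase of membrane phosphoinositides, measured 8.75, 8.72, 8.73 and 8.69 at baseline and 8.40, 8.26, 8.45 and 8.39 in the combination. Synj1 was the tightest gene at baseline among those that passed (SD 0.03), and its adjusted p was 0.0364.

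Smaller falls were recorded for H1f2 (-0.42), a linker histone, Setsip (-0.39), Clic2 (-0.37), of the chloride intracellular channel family, Ccdc71 (-0.36) and Ube2k (-0.33), an enzyme that conjugates ubiquitin. Adjusted p-values for these 5 lay between 0.0383 and 0.0498. H1f2 and Setsip have near-identical relatives in the genome whose transcripts a probe set may also detect, so their identity is uncertain. For Ube2k the other probe sets did not show the fall: the next brightest gave -0.01 (unadjusted p = 0.97).

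Nmu, the peptide neuromedin U, and Far1, which makes fatty alcohols, also passed (adjusted p = 0.0364 and 0.0459), but both were near the lowest level. Nmu was at 4.84 to 5.51 at baseline and at 4.85, 4.00, 4.00 and 4.00 in the combination. Far1 was at 4.46 to 5.84 at baseline and at 4.47, 4.00, 4.00 and 4.00. Both groups overlapped through combination array 1, and the size of the fall is set by the constant added before taking logs, so no fold is given.

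Genes of the fibrous matrix were lower in nearly every case. Of 28 measured genes for fibrillar collagens and the enzymes that process them, 27 were lower in the combination and 1 higher, with a median of -0.41 against 0 over all genes. None passed the adjusted test, and 4 lay wholly below baseline (2.76% of all genes did). Col1a1, the main chain of collagen I, measured 12.47, 11.89, 11.67 and 10.96 at baseline and 10.85, 10.43, 10.84 and 11.11 in the combination. Baseline array 4 fell below combination array 4, and the difference of -0.94 (SE 0.37) had adjusted p = 0.375. Col3a1, the collagen of looser fibres, differed by -0.40 (SE 0.27, adjusted p = 0.646). Serpinh1, a chaperone of collagen folding, did not overlap, at 10.99 to 11.51 against 10.21 to 10.76 (-0.68, adjusted p = 0.204). Loxl1, which cross-links elastin and collagen, did not overlap either, at 9.82 to 10.08 against 7.91 to 9.81 (-1.04, adjusted p = 0.293). The median was -0.23 without combination arrays 2 and 3 and -0.52 without arrays 1 and 4. Against baseline it was -0.185 with vehicle, -0.25 with paricalcitol and -0.17 with enalapril. The named genes were not all lowest in the combination. With vehicle, Serpinh1 differed from baseline by -0.74 (adjusted p = 0.186), Col1a1 by -0.92 (adjusted p = 0.44) and Col3a1 by -0.64 (adjusted p = 0.471). Loxl1 differed by less with vehicle than in the combination, by -0.43 (adjusted p = 0.774).

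Basement membrane genes leaned the same way: 16 of 17 were lower, 1 of them past the threshold (Sparc; 0.113% of all genes passed as lower), with a median of -0.24. Without combination arrays 2 and 3 this median was -0.22, and without arrays 1 and 4 it was -0.25, so it was alike on both pairs of hearts. It was not particular to the combination: against baseline it was -0.32 with vehicle, -0.29 with paricalcitol and -0.27 with enalapril. Col4a1, a collagen of all basement membranes, measured 11.80, 11.64, 11.66 and 11.30 at baseline and 10.58, 11.08, 11.23 and 11.22 in the combination, without overlap (-0.57, SE 0.18, adjusted p = 0.246). Col18a1, the source of endostatin, was at 7.53 to 7.70 and at 6.90 to 7.28 (-0.53, SE 0.16, adjusted p = 0.224). With vehicle, Col4a1 differed from baseline by -0.75 (adjusted p = 0.149) and Col18a1 by -0.64 (adjusted p = 0.163).

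The list of matricellular proteins and fibronectin had the lowest median, -0.56, with 18 of 20 lower and none past the threshold. It did not include Sparc, which passed and was counted with the basement membrane genes. Against baseline the median was -0.09 with vehicle, -0.15 with paricalcitol and -0.19 with enalapril. Among the gene groups other than cell markers, this one differed most between the hearts of the combination: its median was -0.08 without arrays 2 and 3, -1.003 without arrays 1 and 4 and -0.35 with the red cell covariate. Postn, which encodes periostin, a product of activated fibroblasts, shows the pattern. It measured 11.10, 10.79, 11.33 and 12.13 at baseline and 11.32, 7.34, 9.88 and 11.85 in the combination, so that arrays 1 and 4 lay within the baseline range and arrays 2 and 3 far below it (-1.24, SE 0.85, adjusted p = 0.655). Fn1, fibronectin, was at 10.86, 10.16, 10.84 and 10.23 and at 9.75, 8.62, 9.26 and 10.12, without overlap (-1.08, SE 0.35, adjusted p = 0.258). Spp1, osteopontin, was at 8.99 to 10.82 and at 7.01 to 9.51 (-1.46, SE 0.55, adjusted p = 0.357), again lowest on arrays 2 and 3. In whole tissue, fewer fibroblasts and less matrix RNA per fibroblast cannot be told apart. Of 12 fibroblast markers 8 were lower, with a median of -0.10 that was -0.16 with the red cell covariate. These markers include the collagen genes Col1a1 (-0.94) and Col1a2 (-0.64), so the count is not independent of the matrix genes. The marker Thy1 differed by -0.95 (adjusted p = 0.563), whereas Dcn and Pdgfra differed by 0.03 each. Thy1 was dim, at the lowest level on combination arrays 2 and 3 and within the baseline range on arrays 1 and 4. The size of its difference therefore depends on the added constant.

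**Figure D2:**
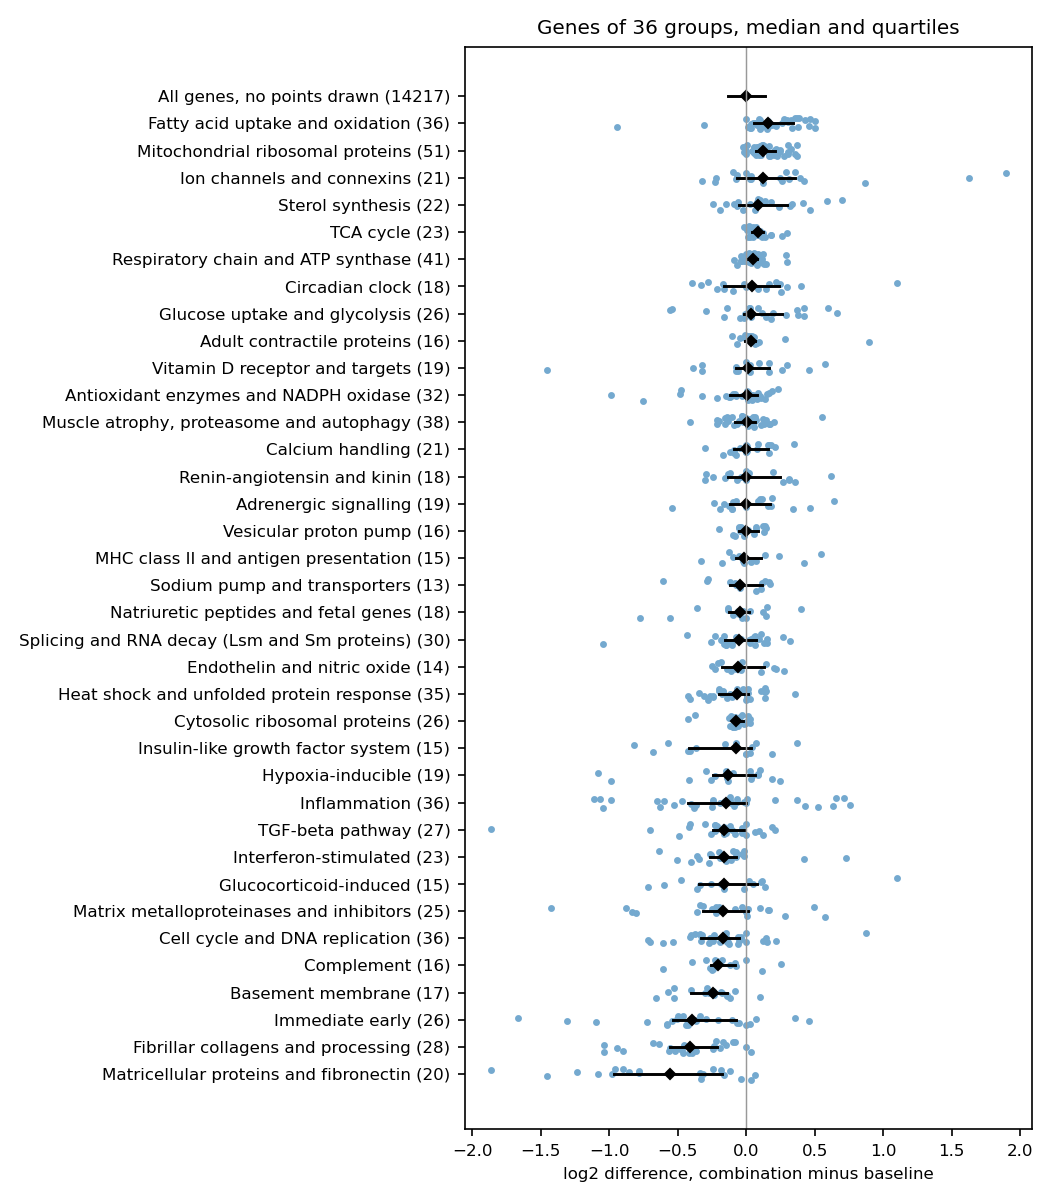
Rows are 36 groups of genes with the number measured in brackets, the horizontal axis is the log2 difference (combination minus baseline), each point is a gene, and the diamond and bar are the median and quartiles. Matricellular and fibrillar collagen genes have medians of -0.56 and -0.41, and fatty acid and mitochondrial ribosome genes medians of 0.16 and 0.12; all genes together have a median of 0.

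Proteases of the matrix and their inhibitors were lower in 17 of 25 cases (median -0.17, none past the threshold), with a median of -0.08 without arrays 1 and 4. Mmp14, a membrane-bound protease that activates gelatinase, measured 9.68, 9.34, 9.03 and 9.21 at baseline and 8.57, 8.44, 8.41 and 8.61 in the combination. Its groups were well separated, but the difference of -0.81 (SE 0.16) had adjusted p = 0.0579. With vehicle Mmp14 differed from baseline by about as much, -0.77 (adjusted p = 0.077). Plau, the urokinase activator of plasminogen, was at 6.08 to 6.62 and at 5.03 to 5.86 (-0.88, adjusted p = 0.19). Its receptor Plaur was at 4.83 to 5.93 at baseline and at the lowest level on all 4 combination arrays (adjusted p = 0.0847). Plaur was also at 4.00, 4.00, 4.00 and 4.58 with vehicle and at 4.00, 4.00, 4.00 and 5.21 with paricalcitol. With enalapril it was at 5.07, 4.00 and 5.405. Timp1, an inhibitor of these proteases that rises with fibrosis, was at 9.36 to 10.87 and at 8.45 to 10.19 (-0.84, SE 0.52, adjusted p = 0.632).

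In the TGF-beta pathway, the main driver of fibroblast activation, 21 of 27 genes were lower and 5 higher, with a median of -0.16 that became -0.02 without combination arrays 2 and 3 and -0.10 with the red cell covariate. None passed. The receptor Tgfbr1 differed by -0.16 (SE 0.06, adjusted p = 0.327) and the signal transducer Smad5 by -0.23 (SE 0.07, adjusted p = 0.254). Of the 15 genes of the insulin-like growth factor system, 8 were lower and 5 higher (median -0.08, and -0.18 without arrays 1 and 4), and only Igf2 passed, where 0.162% of all genes did. Its clearance receptor Igf2r measured 11.21, 11.26, 11.04 and 11.22 at baseline and 10.84, 10.65, 10.81 and 10.96 in the combination, without overlap (-0.37, SE 0.07, adjusted p = 0.0579). Igf1r, through which both growth factors signal, was at 8.24 to 8.47 and at 7.74 to 8.10 (-0.42, adjusted p = 0.267).

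Genes of fatty acid uptake and oxidation, the main fuel of the adult heart, were higher in 33 of 36 cases and lower in 2, with a median of 0.16. None passed the threshold. As with the matricellular genes, combination arrays 2 and 3 set the size: the group's score was 0.41 and 0.24 on them, against -0.23 and -0.10 on arrays 1 and 4 and -0.18 to -0.04 at baseline. Its median was -0.02 without arrays 2 and 3, 0.38 without arrays 1 and 4 and 0.09 with the red cell covariate. Acaa2, the last enzyme of the mitochondrial spiral, showed this with 12.31, 13.01, 12.75 and 12.19 on combination arrays 1 to 4 and 11.97 to 12.21 at baseline (0.50, SE 0.17, adjusted p = 0.291). Slc25a20, which carries acylcarnitines into mitochondria, was higher on all 4, at 10.80, 10.96, 10.78 and 10.47 against 10.18 to 10.32 (0.50, SE 0.12, adjusted p = 0.107).

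**Figure D3:**
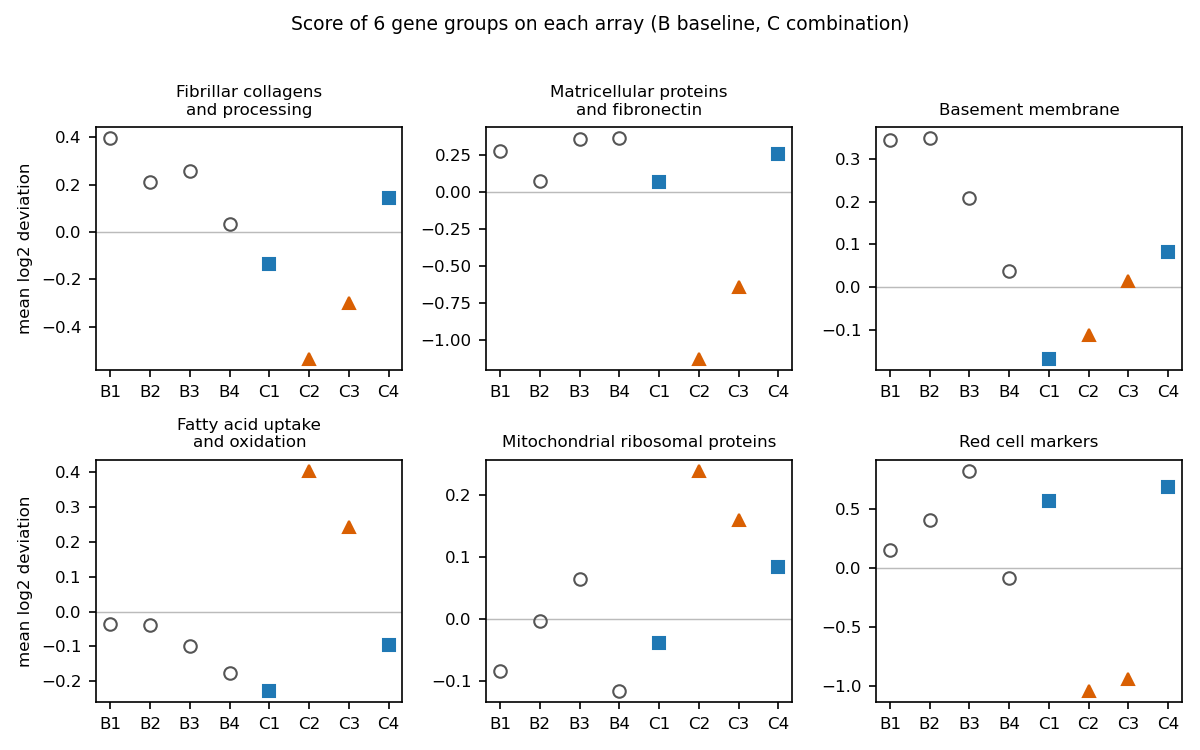
Each panel shows 1 gene group, with the 8 arrays along the horizontal axis (B baseline, C combination) and the mean log2 deviation of its members from their averages over all 19 arrays on the vertical axis. Combination arrays 2 and 3 (triangles) have the lowest red cell scores (-1.05 and -0.94), the lowest matricellular scores (-1.13 and -0.64) and the highest fatty acid scores (0.41 and 0.24).

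Mitochondrial ribosomal proteins were higher in 46 of 51 cases, with a median of 0.12. In this group 1 gene passed (Mrpl49; 0.0492% of all genes passed as higher), and 6 lay wholly above baseline (2.83% of all genes did). Its median was 0.07 without combination arrays 2 and 3, 0.23 without arrays 1 and 4 and 0.08 with the red cell covariate. Mrpl40 measured 9.77, 9.82, 10.03 and 9.83 at baseline and 10.14, 10.24, 10.12 and 10.15 in the combination (0.30, SE 0.06, adjusted p = 0.0588). Enzymes of the tricarboxylic acid cycle were higher in 22 of 23 cases by a median of 0.08, and subunits of the respiratory chain in 33 of 41 by a median of 0.05. Both medians changed sign without arrays 2 and 3, to -0.01 and -0.05; they were 0.16 and 0.13 without arrays 1 and 4, and 0.04 and 0.01 with the red cell covariate. Idh3a, a subunit of isocitrate dehydrogenase, differed by 0.26 (SE 0.07, adjusted p = 0.169). Cytosolic ribosomal proteins went the other way, lower in 23 of 26 by a median of -0.07 (-0.03 without arrays 2 and 3, -0.12 without arrays 1 and 4); Rpl35 was at 12.80 to 12.93 and at 12.71 to 12.79 (-0.12, adjusted p = 0.242).

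Among 26 genes of glucose uptake and glycolysis, 18 were higher (median 0.03, none past the threshold). Slc2a4, the insulin-dependent glucose transporter, was at 10.05 to 10.96 at baseline and at 10.88, 11.62, 11.39 and 11.07 in the combination (0.66, SE 0.24, adjusted p = 0.342). Of 19 hypoxia-inducible genes 11 were lower (median -0.13, turning to 0.03 without arrays 1 and 4). Car9, a carbonic anhydrase, was at 4.71 to 5.58 at baseline and at the lowest level on 3 of 4 combination arrays (adjusted p = 0.173). In the list of antioxidant enzymes and oxidases, 17 of 32 were higher (median 0.00), and Nox4, an oxidase that makes hydrogen peroxide, was at 4.83 to 5.46 and at 4.00 to 4.58 (-0.76, adjusted p = 0.343).

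Fetal and load-responsive genes showed no change that passed the threshold. Nppa, atrial natriuretic peptide, was at 14.39 to 14.42 at baseline and at 14.39, 14.15, 14.28 and 14.42 in the combination (-0.10, SE 0.07, adjusted p = 0.691). Nppb, brain natriuretic peptide, was at 12.74 to 13.72 and at 13.04 to 13.68, a difference of 0.12 (SE 0.22, adjusted p = 0.926) whose sign turned in some settings. Myh7, beta myosin, differed by -0.06 (adjusted p = 0.804), Acta1, skeletal alpha actin, by -0.00 (adjusted p = 1), and Atp2a2, the calcium pump of the sarcoplasmic reticulum, by 0.08 (adjusted p = 0.655), and each of these signs also turned under another setting. Nppa, Myh7, Acta1 and Atp2a2 ranked between 2 and 28 among 31099 probe sets on every array, a range in which quantile normalization leaves little room for a difference. Over the list of 18 such genes, 13 were lower and 5 higher, with a median of -0.05.

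Myh6, the fast alpha myosin that characteristically falls with overload, was the exception in size among 16 adult contractile genes (median 0.03). It measured 13.34, 13.29, 13.11 and 11.57 at baseline and 13.73, 14.02, 13.73 and 13.41 in the combination. The groups did not overlap, but baseline array 4 stood far below the other 3, and the difference of 0.90 (SE 0.48) had adjusted p = 0.566; without baseline array 4 it was 0.48 (adjusted p = 0.843). A second, dimmer probe set differed by 1.75 (SE 0.75, unadjusted p = 0.0344). Of 21 calcium handling genes, 11 were higher and 8 lower, with a median of 0 and none past the threshold. Jph2, which holds the sarcoplasmic reticulum against the surface tubules, was at 10.89 to 11.54 and at 11.58 to 11.75 (0.35, SE 0.13, adjusted p = 0.343), and the difference was 0.20 without baseline array 4.

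Ion channels and connexins were higher in 14 of 21 cases (median 0.12), a median that was -0.01 without combination arrays 2 and 3, 0.20 without arrays 1 and 4 and 0.05 with the red cell covariate. Scn4b, a beta subunit of sodium channels, measured 9.00, 8.17, 8.60 and 7.59 at baseline and 8.80, 10.80, 10.11 and 10.15 in the combination. Combination array 1 lay within the baseline range and the other 3 above it, and the difference of 1.63 (SE 0.41) had adjusted p = 0.124.

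The systems on which the drugs act showed no gene past the threshold. Ace, the enzyme that enalapril inhibits, was at 7.35 to 7.87 at baseline and at 7.85, 6.85, 6.79 and 7.89 in the combination (-0.24, SE 0.29, adjusted p = 0.844); the direction turned without arrays 2 and 3, to 0.28. Agtr1a, the main angiotensin receptor, was dim and differed by -0.04 (SE 0.22, adjusted p = 1). Over 18 genes of the renin-angiotensin and kinin systems, 8 were higher and 8 lower. Enpep, which degrades angiotensin II, was at 8.77 to 9.17 and at 8.47 to 8.87 (-0.30, adjusted p = 0.298). Against baseline Enpep differed by -0.54 with vehicle (adjusted p = 0.0597), -0.30 with paricalcitol (adjusted p = 0.516) and -0.62 with enalapril (adjusted p = 0.0858). Vdr, the receptor of paricalcitol, was dim but did not overlap, at 5.48, 5.57, 5.60 and 5.18 against 6.00, 6.10, 5.87 and 5.68 (0.46, SE 0.21, adjusted p = 0.462). Of 19 genes of the vitamin D receptor and its targets, 10 were higher and 8 lower (median 0.02). Thbd, thrombomodulin of the vessel wall, was at 9.86 to 10.06 and at 9.47 to 9.73 (-0.32, SE 0.07, adjusted p = 0.0949). This fall was not particular to the combination. Against baseline Thbd differed by -0.49 with vehicle (adjusted p = 0.0347), -0.36 with paricalcitol (adjusted p = 0.145) and -0.55 with enalapril (adjusted p = 0.0435). The combination was higher than vehicle by 0.17 (adjusted p = 0.63).

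Adrenergic signalling genes divided evenly, with 9 of 19 higher and 9 lower, and 9 of 14 endothelin and nitric oxide genes were lower (median -0.06, turning to 0.01 without arrays 1 and 4). Endothelial markers were lower in 12 of 14 cases (median -0.13), a median that was -0.20 without combination arrays 2 and 3 and -0.00 without arrays 1 and 4. Cd93, a receptor of endothelial and myeloid cells, measured 8.14, 7.66, 7.67 and 7.57 at baseline and 6.73, 6.80, 7.08 and 7.06 in the combination. Its groups lay apart (-0.84, SE 0.18, adjusted p = 0.0705), but with vehicle it differed from baseline by more, -1.13 (adjusted p = 0.0347). Podxl, a sialomucin of the endothelial surface, was at 9.65 to 9.90 and at 9.37 to 9.50 (-0.34, SE 0.08, adjusted p = 0.0847). With vehicle Podxl also differed from baseline by more, -0.545 (adjusted p = 0.0235). Against vehicle, the combination was higher by 0.29 for Cd93 and 0.21 for Podxl (adjusted p = 0.762 and 0.541). The median of the endothelial markers against baseline was -0.16 with vehicle, -0.05 with paricalcitol and -0.11 with enalapril. Of 13 markers of smooth muscle and pericytes, 11 were lower (median -0.21, and -0.04 without arrays 1 and 4), with Rgs5, a regulator of G proteins in pericytes, at 10.25 to 10.56 and at 9.64 to 10.09 (-0.48, adjusted p = 0.293).

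Inflammatory genes were lower in 26 of 36 cases and higher in 9, with a median of -0.15 and none past the threshold; the median was -0.07 without arrays 2 and 3 and -0.28 without arrays 1 and 4. Stat3, which relays interleukin signals, was nearly constant at baseline (11.61 to 11.65) and lower on all 4 combination arrays (11.02, 11.18, 11.38 and 11.46; -0.37, SE 0.11, adjusted p = 0.237). Tnf, tumour necrosis factor, was dim and ran the other way, at 4.00 to 4.94 and at 4.85 to 5.12 (0.64, adjusted p = 0.372). Among 16 complement genes 13 were lower (median -0.20), a median that was 0.04 without combination arrays 2 and 3, -0.45 without arrays 1 and 4 and -0.11 with the red cell covariate. C5ar1, the receptor of the fragment C5a, was at 8.08 to 8.85 and at 7.69 to 8.11 (-0.61, SE 0.14, adjusted p = 0.101). Of 23 interferon-stimulated genes 21 were lower (median -0.16), but this was -0.43 without arrays 2 and 3 and turned to 0.07 without arrays 1 and 4. The interferon median against baseline was -0.12 with vehicle, -0.40 with paricalcitol and -0.10 with enalapril. Macrophage and myeloid markers were lower in 14 of 18 (median -0.07, turning to 0.11 without arrays 2 and 3 and -0.35 without arrays 1 and 4) and T cell markers in 6 of 11 (median -0.00).

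Transcripts of immediate early genes, induced quickly by stretch, hormones or tissue handling, were lower in 22 of 26 cases, with a median of -0.40. None passed. Egr1 measured 8.07, 9.90, 10.55 and 9.24 at baseline and 8.74, 7.12, 7.37 and 7.88 in the combination, with baseline array 1 within the combination range (-1.66, SE 0.65, adjusted p = 0.379). Junb was at 7.93 to 8.96 and at 7.76 to 7.86, without overlap (-0.73, SE 0.29, adjusted p = 0.393). Their median was -0.25 without arrays 2 and 3 and -0.23 with the red cell covariate.

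Of 36 genes of the cell cycle 30 were lower (median -0.17, none past the threshold), and the median was -0.01 without combination arrays 2 and 3. This fall was not particular to the combination: the median against baseline was -0.26 with vehicle, -0.23 with paricalcitol and -0.20 with enalapril. Sterol synthesis genes were higher in 15 of 22 cases (median 0.09), with a median of 0.20 without arrays 2 and 3, 0.01 without arrays 1 and 4 and 0.13 with the red cell covariate. In that pathway 4 genes lay wholly above baseline (2.83% of all genes did). Lss, which closes the sterol ring, measured 5.90, 5.74, 5.77 and 5.92 at baseline and 6.43, 6.58, 6.08 and 7.04 in the combination (0.70, SE 0.14, adjusted p = 0.0643). Insig1, the sterol sensor that restrains this pathway, differed by 0.18 (SE 0.09, adjusted p = 0.488). With vehicle both differed from baseline by more, Lss by 0.90 and Insig1 by 0.51 (adjusted p = 0.0347 each). Lss differed by 0.06 with paricalcitol and 0.24 with enalapril, and Insig1 by 0.19 and 0.14. Over the sterol list the median against baseline was 0.01 with vehicle, -0.03 with paricalcitol and -0.09 with enalapril. Chaperones of the heat shock and unfolded protein responses were lower in 23 of 35 cases (median -0.07, and -0.12 without arrays 2 and 3 and -0.02 without arrays 1 and 4), with Hspb1 at 12.79 to 12.94 and at 12.26 to 12.72 (-0.43, adjusted p = 0.35). Genes of atrophy, the proteasome and autophagy divided evenly, 19 and 19; Ulk1, the kinase that starts autophagy, was at 8.36 to 8.98 and at 8.99 to 9.38 (0.55, SE 0.18, adjusted p = 0.278).

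To ask whether the combination stood apart from other hearts of its age, the same fit compared it with the other 15-week groups. Against vehicle 1 gene passed (0.00703% of genes): Lsm5, a protein of the ring that binds messenger RNA for decay and splicing, measured 8.71, 8.94, 8.78 and 8.79 in the combination and 8.33 ± 0.08 (SD, n = 4) with vehicle, a difference of 0.47 (SE 0.07, adjusted p = 0.0415). Without combination array 1, 2, 3 or 4 its adjusted p against vehicle was 0.0604, 0.102, 0.0869 and 0.118, and without baseline array 3, which shares the fit, it was 0.051. Its difference from baseline was 0.32 (SE 0.07, adjusted p = 0.0589). Against vehicle 1092 genes had unadjusted p under 0.05. No gene passed against paricalcitol alone (0%, 1286 at unadjusted p under 0.05, smallest adjusted p 0.174), against enalapril alone (0%, 754, 0.252), or against the mean of the 3 other groups (0%, 1022, 0.175).

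The 23 genes that differed from baseline therefore were not shown to differ from the 15-week groups. Their smallest adjusted p against vehicle was 0.0701, and against the mean of the 3 other groups 0.175. The comparisons of each 15-week group with baseline share the same 4 baseline arrays, so their values are only set side by side. Sparc differed from baseline by -0.32 with vehicle (adjusted p = 0.186), -0.42 with paricalcitol (0.133), -0.44 with enalapril (0.171) and -0.66 in the combination. Prkag1 differed by 0.20, 0.16, 0.19 and 0.37 in the same order, Hdgf by -0.06, -0.38, -0.36 and -0.51, and Cpsf7 by -0.14, -0.14, -0.29 and -0.45. Ywhab differed by -0.16, -0.195, -0.14 and -0.24, and its fall from baseline also passed with paricalcitol alone (adjusted p = 0.0448). For each of these genes the combination mean was farthest from baseline, an order that their choice by that difference favours. Their distance to the other 15-week groups did not pass the test.

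Other genes were ordered differently. Igf2 differed from baseline by -0.91 with vehicle (adjusted p = 0.0347), -0.30 with paricalcitol, -0.95 with enalapril and -0.82 in the combination, and the combination differed from vehicle by 0.09 (SE 0.14, adjusted p = 0.944). Myo5b differed by 1.39, 0.80, 1.25 and 1.36, and Nmu was at 4.00 to 4.01 on the 11 other arrays of 15 weeks. In the same order, Cacna2d1 differed by -0.19, -0.61, -0.80 and -0.78, and Ccdc71 by -0.11, -0.37, -0.44 and -0.36. For Ube2k the values were -0.11, -0.355, -0.29 and -0.33. By contrast, the level of Fcer2 was 7.30 ± 0.13 (SD, n = 4) in the combination and between 6.11 and 6.42 in the means of the 4 other groups, baseline included. Perm1 averaged 10.54 ± 0.15 and 9.80 to 10.04 in the others, and Mrpl49 9.80 ± 0.06 and 9.46 to 9.61. Differences from the mean of the 3 other 15-week groups were 0.99 (adjusted p = 0.19) for Fcer2, 0.52 (adjusted p = 0.289) for Perm1 and 0.26 (adjusted p = 0.175) for Mrpl49. Myh6 was lower with vehicle (12.06) than at baseline (12.83) in its means and highest in the combination (13.72), with a difference from vehicle of 1.66 (SE 0.48, adjusted p = 0.451). Ecrg4, which encodes the secreted peptide augurin, was at 6.39 at baseline, 7.20 with vehicle, 6.04 with paricalcitol, 6.98 with enalapril and 6.64 in the combination.

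**Figure D4:**
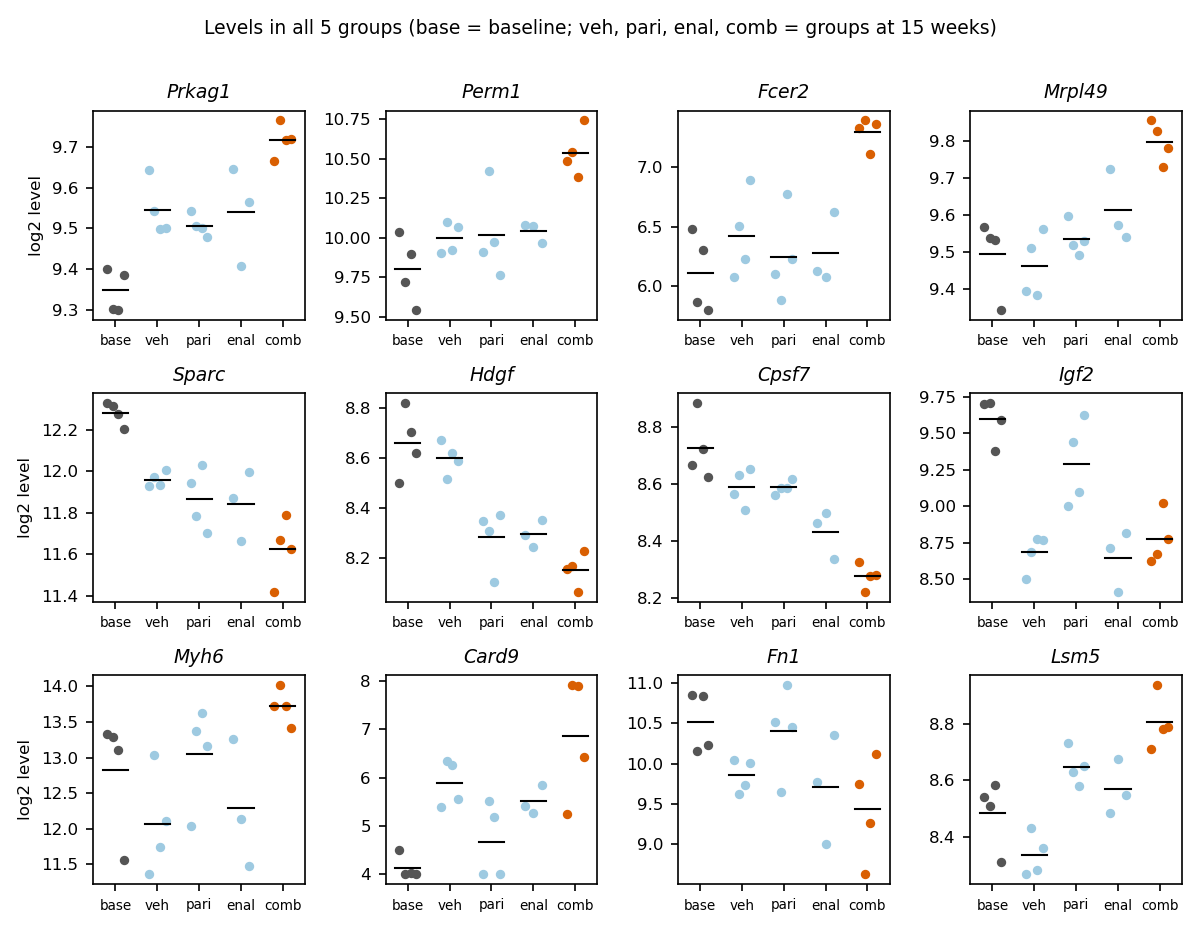
Log2 levels of 12 genes on all 19 arrays, 1 point per array and a bar for each group mean (baseline at 11 weeks, the other 4 groups at 15 weeks); each panel has its own vertical scale. Prkag1, Perm1, Fcer2 and Mrpl49 are highest, and Sparc, Hdgf and Cpsf7 lowest, in the mean of the combination, while Igf2 is as low with vehicle (8.68) and enalapril (8.65) as in the combination (8.77).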

How the data were processed

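Left ventricle RNA of 19 rats was hybridised to Affymetrix arrays, 1 array per rat by the labels. The values deposited by the authors are intensities on a linear scale, 1 per probe set, of which 16% to 17.6% lie below 0 on each of the 8 arrays compared; how they were made is not given in the sources used. Arrays were quantile normalized together because their medians differed, negative values were set to 0, and log2(value + 16) was taken, which understates changes of dim genes. Of 31099 probe sets, 20826 name 1 gene in the platform annotation, 436 several, 9780 none and 57 are controls; the brightest probe set stood for each of 14217 genes, with no filter on low values. All 5 groups entered 1 group-means model in limma 3.58.1 (R 4.3.3; eBayes with a trend, Benjamini-Hochberg over all genes), and unadjusted p-values come from the same model (for single probe sets, fitted over all probe sets). The script was tested on simulated data. The number of arrays limits precision.

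Genes named are up to 12 per direction that passed, did not overlap and reached a level of 6, filled up by smallest p, then up to 3 of smallest p per gene list and a panel of cardiac genes; the remaining genes that passed, and Sln, Hcn4, Tnni2, Mybpc1, Ms4a1, Dcn and Pdgfra, were added after their values were seen. Members and lists were chosen with earlier results of these data known. Gene lists held 1070 names, of which 948 were measured. Alternatives changed the normalization, the constant, the filter, the variance model, the arrays in the fit, the probe set rule, a red cell covariate and a replicate block, and left out arrays; leaving out combination arrays 2 and 3, or 1 and 4, was chosen after seeing the data. Promoters are from RefSeq (GRCr8).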

Additional observations from a re-analysis of the deposited data

Results flagged for a closer look

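In 12 of 172 groups of 4 arrays, over the 87 genes examined, 1 array stood far from the other 3; chance flags about 1 in 20 groups. At baseline, array 4 was low for Mrpl49 (9.34, the others 9.53 to 9.57), Myh6 (11.57, the others 13.11 to 13.34) and Jph2 (10.89, the others 11.44 to 11.54). Baseline array 1 was high for Card9 (4.50, the others 4.00 to 4.03), array 2 for Mecr (7.67, the others 7.18 to 7.19), and array 3 was low for Smad5 (8.02, the others 8.18 to 8.21). In the combination, array 1 was low for Mecr (7.60, the others 8.02 to 8.10) and stood above the lowest level for Far1 (4.47) and Nmu (4.85), where the other 3 arrays were at 4.00. Combination array 4 was low for Rgs5 (9.64, the others 10.01 to 10.09) and Insig1 (8.84, the others 8.99 to 9.01) and above the lowest level for Car9 (4.21, the others 4.00).

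The change from baseline of Lsm5 differed between the combination and vehicle groups by 0.47, by the limma test of that difference given in the report.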

How the results depend on the processing

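All 23 genes kept their direction in every setting that measured them except Ube2k, at 0.05 with the probe set of largest spread. The counts were less steady (7 higher and 16 lower as reported). They were 0 and 2 without equalising arrays, which moved the median of all genes to -0.14, 12 and 8 with arrays centred on the median, 7 and 9 with cyclic loess, 0 and 1 with the 8 arrays normalized alone, and 0 and 1 with only the 8 arrays in the fit; neither of the last settings kept any of the 23. They were 14 and 29 with dimmer genes left out, 4 and 10 without a variance trend, 31 and 39 with array weights, 1 and 1 with the mean of all probe sets, and 13 and 23 with the red cell score as a covariate. Without combination arrays 1 and 4 they were 21 and 19, and without arrays 2 and 3 they were 7 and 11. Thus the share of lower genes was 69.6% as reported, 40% with centred arrays, 56.2% with loess and 55.7% with array weights. Leaving out 1 array gave 1 to 6 higher and 4 to 15 lower genes. The cause of these shifts was not tested. With the replicate number as a block 9 and 14 genes passed, 14 of them among the 23. Deviations of same-numbered baseline and combination arrays correlated at -0.262, 0.138, 0.074 and 0.089. These values show no clear pairing by number, but cannot exclude that same-numbered arrays share a batch.

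Against vehicle (1 gene as reported) 0 genes passed without equalisation, with centred arrays, with loess, with dimmer genes left out and with the red cell covariate, 3 with the probe set of largest spread, 2 with the replicate block, 2 without combination arrays 2 and 3, 8 without arrays 1 and 4, and 0 to 4 with 1 array left out. Against the mean of the other 15-week groups (0 as reported) 1 passed with the block, 3 without arrays 2 and 3, 8 without arrays 1 and 4, and 0 to 2 with 1 array left out.

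Some small differences of genes that did not pass turned sign. Without equalisation Tnnt2 was at -0.095, Nppb at -0.013, Atp2a2 at -0.042 and Insig1 at -0.012. With centred arrays Myh7 was at 0.017, Acta1 at 0.052 and Agtr1a at 0.018. Tnnt2 was at -0.007 with loess, Acta1 at 0.006 with array weights and 0.001 with the red cell covariate, and Atp2a2 at -0.094 with the mean of probe sets and -0.143 with that of largest spread. Without combination arrays 2 and 3, Hbb was at 0.052, Myh7 at 0.015, Acta1 at 0.028, Ace at 0.285 and Postn at 0.249. Without arrays 1 and 4, Nppb was at -0.12 and Agtr1a at 0.109. With 1 array left out, Acta1 ran from -0.034 to 0.017, Agtr1a from -0.149 to 0.047 and Nppb from -0.068 to 0.257. Genes at the lowest level on all arrays could show no difference.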
